A study of Mus musculus with 24 samples.

Results

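Cardiomyocytes from mice that had received doxorubicin 16 h earlier were compared between Top2b-/- and WT animals on 6 of the 24 arrays of the series, 3 of each genotype. Members were taken by the array titles, since the title and the genotype field contradict each other on some arrays. The series holds 8 groups of 3 arrays: both genotypes, doxorubicin or PBS, and hearts taken 16 h or 72 h after the injection. The Top2b-/- mice are described as a conditional knockout of top2b in cardiomyocytes, and the promoter that drove the recombinase is not given in the labels. The groups used here are Top2b-/- with doxorubicin at 16 h, WT with doxorubicin at 16 h, Top2b-/- with PBS at 16 h, WT with PBS at 16 h, and Top2b-/- and WT with doxorubicin at 72 h. All were labelled as male mice aged 6 weeks on a mixed 129SvEv/C57BL/6 background. Doxorubicin was given intraperitoneally at 25 mg/kg, PBS by the same route, and cardiomyocytes were isolated on a Langendorff apparatus before total RNA was labelled with Cy3 for a one-colour Agilent array. Levels are given throughout as log2 signal relative to the 75th percentile of the array, so that 0 is the signal of that percentile, and a difference is always Top2b-/- minus WT on this log2 scale, with its standard error (SE) from the fit of the 4 groups of 16 h (3 arrays each).

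Doxorubicin is an anthracycline that traps type II topoisomerases on DNA after they have cut both strands, and the trapped enzyme becomes a double-strand break. Top2a is the isoform of dividing cells, whereas Top2b is the isoform of cells that no longer divide, such as adult cardiomyocytes. Strand breaks activate the kinase ATM and the transcription factor p53, whose targets halt the cell cycle, repair DNA or start apoptosis. Damaged DNA can also set off an interferon response, in which a complex that contains STAT2 and IRF9 binds the interferon-stimulated response element in the promoters of antiviral genes. The heart is the organ in which anthracyclines are dose-limiting.

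The genotype field of the labels contradicts the title on 4 arrays of 16 h: replicate 3 of Top2b-/- with PBS, replicate 3 of WT with PBS, replicate 1 of Top2b-/- with doxorubicin and replicate 1 of WT with doxorubicin. Ddx3y, a Y-linked gene, was well above background on 1 of 3 Top2b-/- and 1 of 3 WT doxorubicin arrays (replicate 1 in each), and on 0 of 3 Top2b-/- and 3 of 3 WT PBS arrays, although every animal is labelled male. The 3 Top2b-/- doxorubicin arrays lay on slide 2 and the 3 WT doxorubicin arrays on slide 1, so that within these 6 arrays slide and genotype cannot be told apart. The 75th percentile of the raw signal was 243, 245 and 282 on the Top2b-/- doxorubicin arrays and 185, 172 and 259 on the WT doxorubicin arrays. Between 43.6% and 47.7% of the probes were well above background on each of the 6 arrays, and no spot was saturated. The 10 cardiomyocyte markers had the highest summed level of any marker list on every array, at 8667, 8127 and 7034 times the array's 75th percentile in Top2b-/- doxorubicin cells and 9513, 9811 and 7552 in WT doxorubicin cells.

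Top2b, the targeted gene, had levels of 2.54, 3.18 and 3.34 in Top2b-/- cells with doxorubicin, against 4.39, 4.38 and 4.15 in WT cells with doxorubicin. Its probe lies at chr14:17263157-17263216 of the mm9 build, and whether it falls in the deleted part of the gene is not given in the labels. The groups did not overlap, and the difference was -1.29 ± 0.19 (adjusted p = 0.000817), with a residual signal in every Top2b-/- array. With PBS the difference was -1.14 (adjusted p = 0.004), and at 72 h after doxorubicin it was -0.73 (adjusted p = 0.0735, and 0.0271 with the replicate number as a block). Among the 7 topoisomerase and tyrosyl-DNA phosphodiesterase genes tested, Top3a, which unlinks recombination intermediates, was also lower (-0.73, adjusted p = 0.0102). Top1, Top1mt, Top3b, Tdp1 and Tdp2 had differences of -0.14, -0.34, -0.05, 0.33 and -0.27 and did not pass. Top2a did not pass the filter on dim probes and was not tested. Esr1, the estrogen receptor, part of which is fused to Cre in tamoxifen-inducible recombinases, was singled out after its values were seen: it stood at 5.86, 5.04 and 5.83 in Top2b-/- cells with doxorubicin, against -5.43, 0.60 and 1.05 in WT cells with doxorubicin, where 2 of 3 arrays were above background. On the PBS arrays Esr1 read 5.91, 5.73 and 6.45 in Top2b-/- cells, against -5.78, -5.95 and -5.48 in WT cells.

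Across the 18751 genes tested, 5869 (31.3%) differed between Top2b-/- and WT cells 16 h after doxorubicin at an adjusted p under 0.05. Of these, 3178 (16.9%) were higher and 2691 (14.4%) were lower in Top2b-/- cells, and the median over all genes was -0.01. A difference of at least 2-fold was reached by 1424 of the higher and 1268 of the lower genes. In 5574 of the 5869 genes the 3 Top2b-/- values and the 3 WT values did not overlap; over all genes tested, called or not, 7276 (38.8%) showed no overlap. The split between higher and lower genes depends on the scaling: relative to the 50th percentile of each array, 4082 genes were higher and 1805 lower, and the median over all genes moved to 0.15. When slide entered the fit as a block, 404 genes (2.15%) passed, 236 (1.26%) higher and 168 (0.896%) lower. In that fit the slide term rests on the single Top2b-/- PBS array that lay on slide 2. Described below are the genes chosen by a fixed rule together with 853 tested members of 40 gene lists, and list members named beyond the rule were picked as examples after their values were seen.

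**Figure D1:**
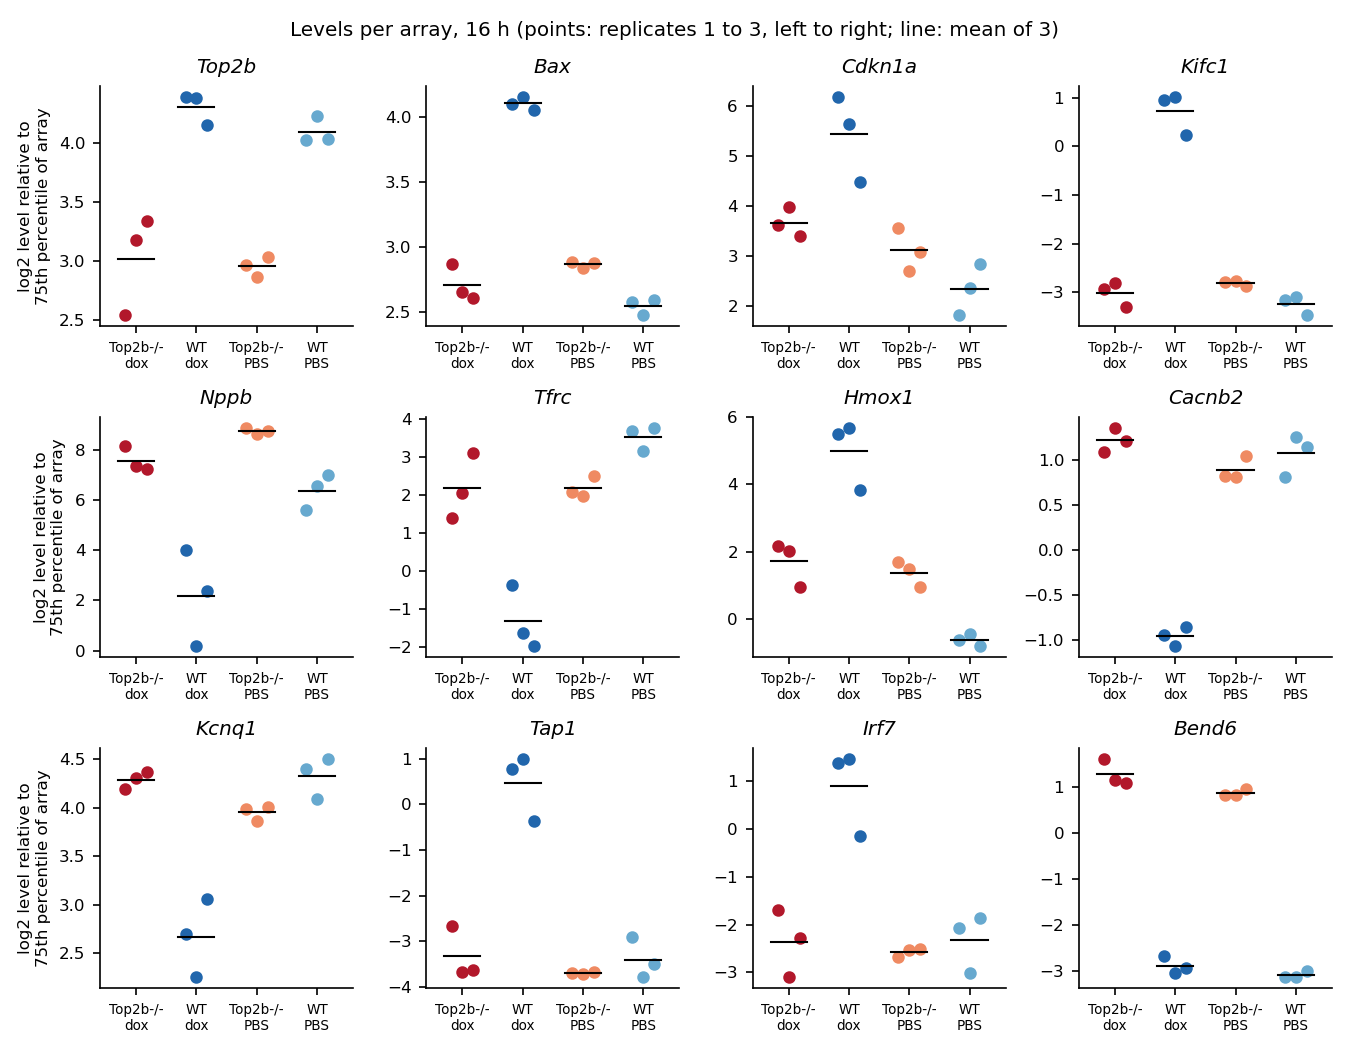
Level of 12 genes on each of the 12 arrays of 16 h (y axis: log2 signal relative to the array's 75th percentile, with a scale of its own for each gene; points: replicates; lines: mean of 3 arrays; dox: doxorubicin). Bax, Cdkn1a, Kifc1, Tap1, Irf7 and Hmox1 are highest in WT doxorubicin cells and Nppb, Tfrc, Cacnb2 and Kcnq1 are lowest there, while Bend6 and Top2b separate by genotype under both treatments.

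The largest positive differences among genes measured on all 6 arrays belonged to Nppb, Itgb1bp3, Krt18, Spink4, Inhba, Serpinb1a, Bend6, Aqp8, Olfml2b and Wdfy1. Nppb, which encodes brain natriuretic peptide, stood at 8.13, 7.35 and 7.22 in Top2b-/- cells, against 3.99, 0.16 and 2.37 in WT cells. The 3 Top2b-/- values lie close together and far above the scattered WT values (5.39 ± 0.76, adjusted p = 0.000703; probe at mm9 chr4:147360489-147360548). Itgb1bp3, a nicotinamide riboside kinase of muscle, read 5.94, 4.68 and 4.93 in Top2b-/- cells, against -0.77, 0.30 and 0.46 in WT cells, and differed by 5.19 ± 0.44 (adjusted p = 4.31e-05). Krt18, a keratin of simple epithelia, was higher by 4.89 ± 0.48. Spink4, a serine protease inhibitor, read 3.70, 2.86 and 2.75 in Top2b-/- cells, against -1.58, -1.67 and -1.95 in WT cells (4.83 ± 0.23). Bend6 read 1.61, 1.16 and 1.09 in Top2b-/- cells, against -2.69, -3.04 and -2.94 in WT cells, and had the smallest adjusted p of these 10 genes (4.18 ± 0.15, adjusted p = 8.57e-07; probe at mm9 chr1:33908945-33909004). Inhba, the activin A subunit, was higher by 4.52 ± 0.42, Serpinb1a, an inhibitor of neutrophil proteases, by 4.25 ± 0.61, Aqp8, a water channel, by 3.85 ± 0.84, the matrix gene Olfml2b by 3.62 ± 0.37 and Wdfy1 by 3.62 ± 0.16.

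The largest negative differences under the same conditions included those of Scn4b, Fbxo44, Hsd17b7, Pttg1, Tap1, Kifc1, Hdc, Gbp2 and Pnmt. Scn4b, a beta subunit of the cardiac sodium channel, read -3.67, -3.0 and -2.56 in Top2b-/- cells, against -0.35, 1.10 and 3.39 in WT cells (-4.46 ± 0.87, adjusted p = 0.00383). Pttg1, the securin that holds back sister chromatid separation, read 2.29, 2.43 and 2.26 in Top2b-/- cells, against 6.35, 5.78 and 6.36 in WT cells (-3.84 ± 0.16, adjusted p = 1.16e-06). The Pttg1 groups are narrow and far apart. Kifc1, a minus-end-directed mitotic kinesin, read -2.92, -2.80 and -3.31 in Top2b-/- cells, against 0.95, 1.02 and 0.23 in WT cells (-3.74 ± 0.22, adjusted p = 5.18e-06). A near copy, Kifc5b, exists in the mouse genome, so signal from either gene may contribute to this probe. Pnmt, which converts noradrenaline to adrenaline, read -1.48, -1.45 and -1.83 in Top2b-/- cells, against 1.85, 1.80 and 2.18 in WT cells (-3.53 ± 0.20, adjusted p = 5.18e-06). Fbxo44, a ubiquitin ligase subunit, was lower (difference -4.05 ± 0.72) and Hsd17b7, an enzyme of cholesterol synthesis (-3.89 ± 0.20). The histidine decarboxylase gene Hdc differed with a wide error (-3.68 ± 0.84), and its WT arrays ranged between 3.46 and -0.93.

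Some genes were well above background on all 3 arrays of one genotype and on none of the other, and there only a bound on the fold can be given. Psca was at least 9.76-fold higher in Top2b-/- cells (adjusted p = 0.000823), Masp1, a protease of the complement lectin pathway, at least 8.45-fold higher (adjusted p = 0.00105) and Ntn4, a netrin, at least 6.83-fold higher (adjusted p = 0.000487). In the opposite direction Rab6b, a Golgi GTPase of neurons, was at least 51.7-fold lower in Top2b-/- cells (adjusted p = 9.59e-06), Gtse1, which is expressed in G2 and S phase and restrains p53, at least 25.9-fold lower (adjusted p = 6.1e-05) and the histone gene Hist1h2bg at least 17.8-fold lower (adjusted p = 0.000459). The bound sets the mean of the bright group against the faintest signal still well above background on the arrays of the dim group, or against the dim probe's own signal where that is higher. Histone genes have near-identical copies, so the Hist1h2bg signal may come from several of them.

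The p53 target genes were lower in Top2b-/- than in WT cells after doxorubicin. Of 33 tested, 24 were lower, 0 were higher and 9 did not pass, with a median difference of -1.40, while 14.4% of all genes tested were lower and the median over all genes was -0.01. Bax, the pore-forming effector of mitochondrial apoptosis, had levels of 2.87, 2.65 and 2.60 in Top2b-/- cells, against 4.11, 4.16 and 4.06 in WT cells (-1.40 ± 0.10, adjusted p = 1.94e-05; probe at mm9 chr7:52717122-52717181). Aen, a nuclease that is induced by p53, read 5.32, 5.32 and 5.42 in Top2b-/- cells, against 7.24, 6.85 and 6.75 in WT cells (-1.60 ± 0.14, adjusted p = 4.23e-05). Phlda3, a p53-induced inhibitor of AKT, read 3.38, 2.32 and 2.45 in Top2b-/- cells, against 4.89, 4.93 and 4.92 in WT cells (-2.19 ± 0.23). In all 3 genes every WT array lies above every Top2b-/- array. Cdkn1a, the p21 inhibitor of cyclin-dependent kinases, read 3.62, 3.98 and 3.40 in Top2b-/- cells, against 6.18, 5.63 and 4.48 in WT cells (-1.77 ± 0.41, adjusted p = 0.00961). The spread of Cdkn1a among WT arrays was wide, with replicate 3 the lowest, yet the groups did not overlap.

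Death-signalling targets of p53 were among the lower genes. Fas and Tnfrsf10b, the receptors for Fas ligand and TRAIL, were lower (differences -2.18 ± 0.28 and -1.98 ± 0.24), Lrdd, the PIDD scaffold of caspase 2 activation (-2.29 ± 0.24) and Bbc3, the BH3-only protein PUMA (-2.0 ± 0.27). Pmaip1, the BH3-only protein NOXA, was at least 14.2-fold lower in Top2b-/- cells, Eda2r at least 4.88-fold lower and Ckap2 at least 4.29-fold lower, and all 3 were well above background on every WT array and on no Top2b-/- array. Trp53inp1, a stress protein of autophagy, read 1.88, 1.09 and 0.21 in Top2b-/- cells, against 4.36, 3.85 and 3.54 in WT cells (-2.86 ± 0.39). Polk, a translesion DNA polymerase, was lower (difference -2.83 ± 0.34) and Gadd45a, a growth arrest gene (-2.35 ± 0.50). Mdm2, the ubiquitin ligase that degrades p53, was lower by a smaller amount, -0.84 ± 0.15, and so was the phosphatase Ppm1d (-0.76 ± 0.14). The members that did not pass were 9630033F20Rik, Btg2, Ccng1, Sesn1, Zmat3, Rrm2b, Perp, Ddb2 and Xpc, whose differences ran between -0.74 and 1.56. Ddb2 and Xpc, the damage sensors of nucleotide excision repair, had differences of -0.04 ± 0.24 and 0.03 ± 0.36.

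**Figure D2:**
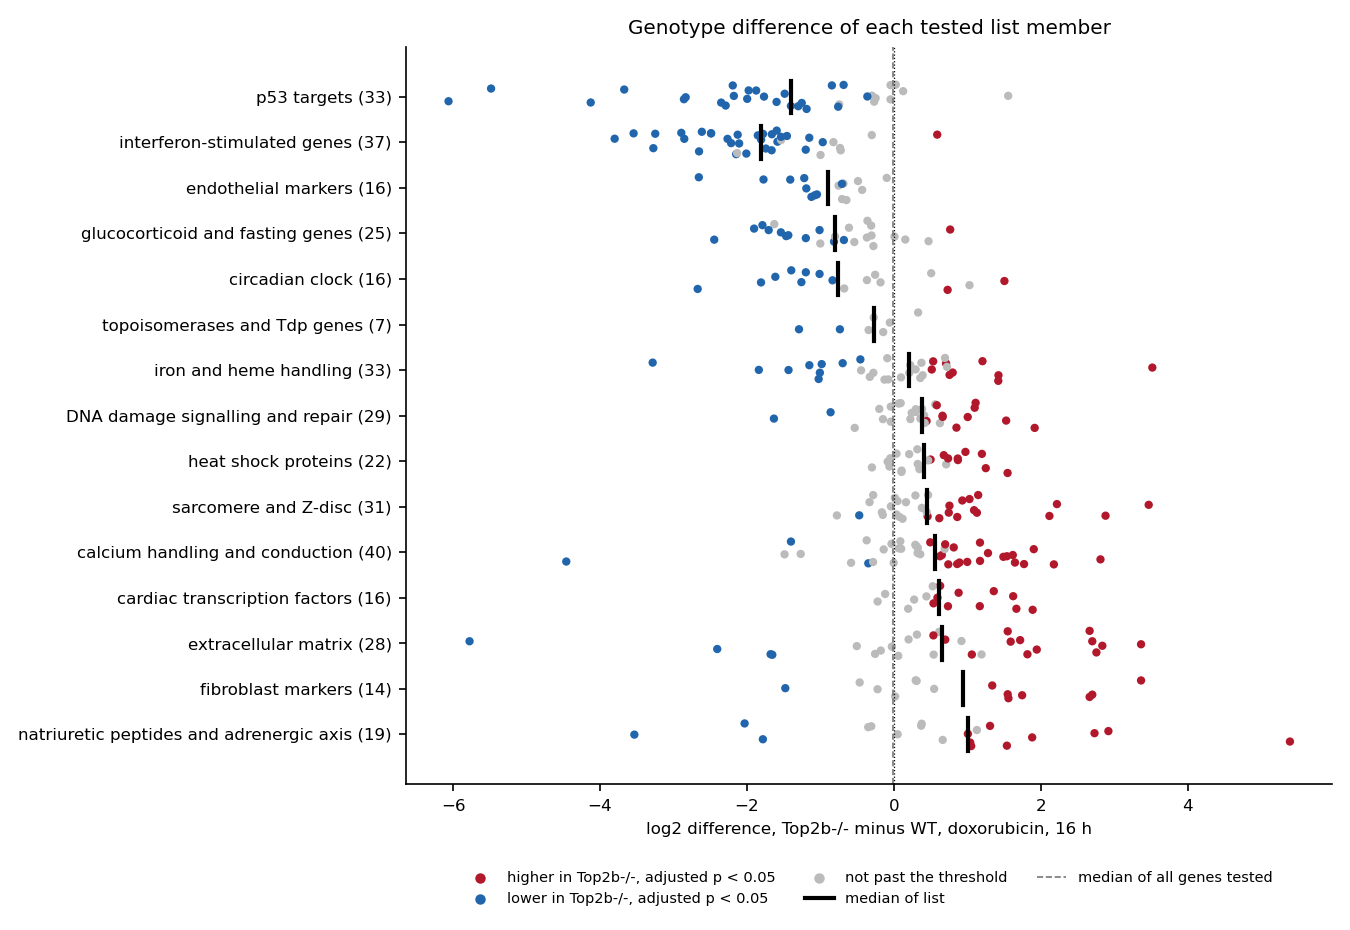
Genotype difference of every tested member of 15 gene lists 16 h after doxorubicin (x axis: log2 difference, Top2b-/- minus WT; number of tested members in parentheses; black bars: median of the list; dashed line: median of all genes tested). The medians run between -1.81 for interferon-stimulated genes and 1.01 for natriuretic peptides and the adrenergic axis.

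In the PBS groups, 5 of the 33 p53 targets differed between genotypes, 3 higher and 2 lower, with a median of 0.03; 12.5% of all genes tested differed there, 6.77% higher and 5.68% lower. The genotype difference under doxorubicin minus that under PBS was negative and past the threshold in 17 of the 33 (median -1.45), where 11.4% of all genes tested passed, 6.17% upward and 5.27% downward. Bax stood at a mean of 2.87 in Top2b-/- and 2.54 in WT cells with PBS, a difference of 0.32 that did not pass, and its difference of differences was -1.72 (adjusted p = 0.000349). Phlda3 was higher in Top2b-/- than in WT cells with PBS (1.46) and lower with doxorubicin, with a difference of differences of -3.65. Plk2, a kinase induced by p53, did the same, with 1.54 with PBS and -1.25 ± 0.26 with doxorubicin. With slide as a block, 8 of the 33 remained lower, with a median of -1.42. The PBS and doxorubicin comparisons share no array.

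**Figure D3:**
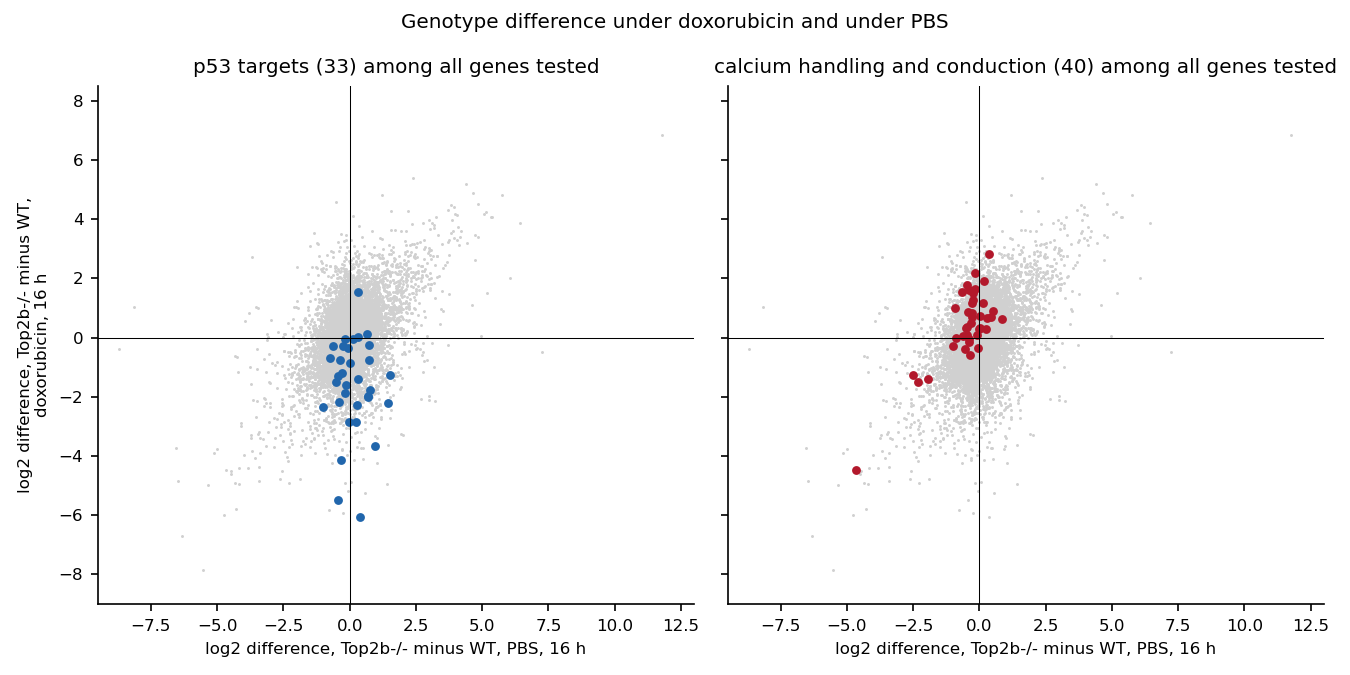
Genotype difference under PBS (x axis) and under doxorubicin (y axis), both log2, Top2b-/- minus WT at 16 h, for all genes tested (grey) with 33 p53 targets (blue, left) and 40 calcium handling and conduction genes (red, right). Most p53 targets lie below 0 on the y axis and near 0 on the x axis, with medians of -1.40 under doxorubicin and 0.03 under PBS, and the calcium genes have medians of 0.56 and -0.29.

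Interferon-stimulated genes were the list with the lowest median among the pathway lists. Of 37 tested, 29 were lower in Top2b-/- cells, 1 was higher and 7 did not pass, with a median of -1.81. Over all genes tested, 14.4% were lower and 16.9% higher. The interferon-stimulated response element was searched as GAAANNGAAA on both strands in the RefSeq promoter windows of GRCm38.p6, which run from 250 bases before to 50 bases after each gene start. These letters were found in 16 of the 28 tested members with a window, in 13 of 23 lower members and 3 of 5 members that were not lower, and in 3.99% of all 27025 genes with a window (3.44% of 32851 windows). The stretches below are shown because they carry the element within the window upstream of genes that were lower (Ifit3, Isg15, Oas1a, Irgm2 and Igtp) or did not pass (B2m), with the matched letters, overlapping matches merged, in capitals. They lie at chr19:34583387-34583436 (plus strand), chr4:156200855-156200904 (minus), chr5:120907526-120907559 (minus), chr11:58214893-58214942 (plus), chr11:58199502-58199551 (plus) and chr2:122147528-122147577 (plus).
Ifit3: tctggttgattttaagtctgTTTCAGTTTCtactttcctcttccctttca
Isg15: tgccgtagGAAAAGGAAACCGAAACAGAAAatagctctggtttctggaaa
Oas1a: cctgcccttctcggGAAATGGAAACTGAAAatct
Irgm2: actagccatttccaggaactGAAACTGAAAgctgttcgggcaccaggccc
Igtp: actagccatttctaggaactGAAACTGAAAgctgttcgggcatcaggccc
B2m: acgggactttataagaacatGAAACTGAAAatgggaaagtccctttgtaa
The list was made of known interferon-stimulated genes, so a share above that of all genes may follow from its choice alone. A match in these letters is a description of the sequence, and binding was not measured.

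Tap1, the peptide transporter that loads MHC class I, read -2.67, -3.68 and -3.62 in Top2b-/- cells, against 0.79, 1.0 and -0.36 in WT cells (-3.80 ± 0.38, adjusted p = 9.41e-05). Irf7, the transcription factor that amplifies type I interferon, read -1.70, -3.10 and -2.27 in Top2b-/- cells, against 1.36, 1.46 and -0.16 in WT cells (-3.25 ± 0.47, adjusted p = 0.00085). For both genes WT replicate 3 was the lowest of the WT arrays and still above every Top2b-/- array. Isg15, the ubiquitin-like antiviral modifier, read 1.30, -0.01 and 0.59 in Top2b-/- cells, against 2.89, 3.28 and 2.16 in WT cells (-2.15 ± 0.38). Ifit3, a binder of foreign RNA, was lower (difference -2.61 ± 0.42), Oasl1 (-2.85 ± 0.41), the oligoadenylate synthetase Oas1a (-2.11 ± 0.40) and Rsad2, the viperin enzyme (-2.65 ± 0.38). The guanylate-binding protein gene Gbp2 was lower (difference -3.54 ± 0.66).

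The immunity-related GTPases attack the vacuoles of intracellular pathogens, and their levels were widely spread among the WT arrays. Irgm2 read 2.33, 1.77 and 1.77 in Top2b-/- cells, against 7.04, 6.27 and 2.39 in WT cells (-3.27 ± 0.91, adjusted p = 0.0208). Igtp, another member of this family, read 3.60, 3.23 and 3.41 in Top2b-/- cells, against 8.18, 7.33 and 3.42 in WT cells (-2.89 ± 0.92, adjusted p = 0.0366). WT replicate 3 fell within the Top2b-/- range for Igtp and just above it for Irgm2. Mx2, B2m, Iigp1, Cxcl10, Xaf1 and Ddx58 were among the 7 members that did not pass. B2m, the light chain of MHC class I, read 4.67, 3.99 and 4.45 in Top2b-/- cells, against 5.25, 5.50 and 4.56 in WT cells (-0.73 ± 0.27, adjusted p = 0.0625). Ifi35 was the member higher in Top2b-/- cells (0.59 ± 0.13), as it was with PBS (0.86).

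Summed over the 37 genes, the interferon-stimulated signal was 93.1, 62.8 and 71.7 times the 75th percentile in Top2b-/- doxorubicin cells, against 639, 424 and 102 in WT doxorubicin cells. With PBS it was 55.0, 56.2 and 54.4 in Top2b-/- cells, against 64.0, 46.5 and 56.4 in WT cells. In this sum, where bright members weigh most, 2 WT doxorubicin arrays stood apart from all other arrays of 16 h. The median level over the 37 genes was 1.20, 1.67 and 0.56 on the WT doxorubicin arrays, all 3 above every other array. It was -0.48, -1.39 and -1.13 on the Top2b-/- doxorubicin arrays, and at most -0.33 with PBS. With PBS 1 member was higher and 1 lower in Top2b-/- cells, where 6.77% of all genes tested were higher and 5.68% lower. The lower member was Rsad2 (-2.09, adjusted p = 0.00669). The difference of differences was negative and past the threshold in 12 of the 37, beside 5.27% of all genes tested. Irf7 (-2.99) and Tap1 (-3.51) were among the 12. With PBS, Tap1 was well above background on 2 of 3 Top2b-/- and 1 of 3 WT arrays. With slide as a block 1 of the 37 remained lower, Tap1 (-3.84, adjusted p = 0.03), and the list median was -1.54.

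Among markers of other cells, those of neutrophils and endothelial cells were mostly lower where they passed. In the other direction, 4 of 12 smooth muscle and pericyte markers were higher and 0 lower, and 7 of 14 fibroblast markers were higher and 1 lower. Of 4 lymphocyte markers 0 passed. Of 4 neutrophil markers tested, 3 were lower in Top2b-/- cells: Ly6g (-1.94 ± 0.29), the alarmin S100a9 (-2.28 ± 0.72) and its partner S100a8, which was at least 4.79-fold lower and on no Top2b-/- array well above background. Csf3r did not pass, and with slide as a block 0 of the 4 did. Their summed level was 68.6, 79.7 and 76.5 in Top2b-/- cells, against 99.5, 85.6 and 66.6 in WT cells, and these ranges overlap. Their median levels did not overlap, at -1.51, -2.46 and -1.73 against 0.87, 0.59 and -0.84. Of 16 endothelial markers, 9 were lower and 0 higher, with a median of -0.90. Over all genes tested, 14.4% were lower and 16.9% higher. Of 16 macrophage markers, 1 was lower, and their summed level was 94.1, 86.9 and 70.6 in Top2b-/- cells, against 97.5, 94.1 and 66.1 in WT cells. The part of these cells in the interferon-stimulated difference was not tested. In such bulk preparations, fewer cells of a type and less RNA per cell cannot be told apart.

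**Figure D4:**
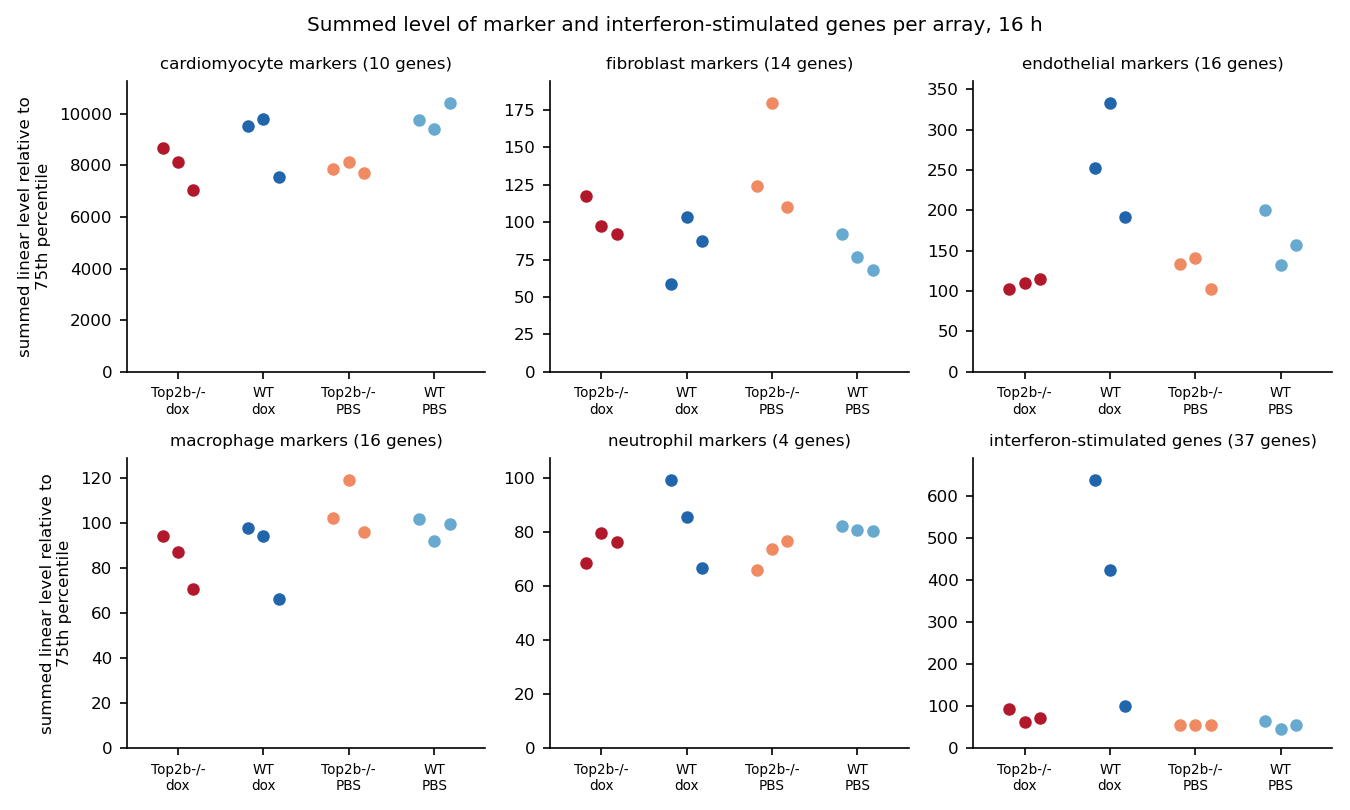
Summed linear level of 5 marker lists and of the interferon-stimulated genes on each array of 16 h (y axis: sum of the members' levels relative to the array's 75th percentile, starting at 0; points: replicates 1 to 3 from left to right; dox: doxorubicin). WT doxorubicin arrays read 252, 333 and 191 for endothelial markers, above the 3 Top2b-/- doxorubicin arrays at 102, 110 and 115, and 2 of them are far above all other arrays for interferon-stimulated genes, at 639 and 424.

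Endothelial markers were detected in these cardiomyocyte preparations, and those that passed the test were all lower in Top2b-/- doxorubicin cells. Cldn5, a claudin of endothelial tight junctions, read 0.13, 0.24 and 0.65 in Top2b-/- cells, against 4.08, 2.80 and 2.12 in WT cells (-2.65 ± 0.43, adjusted p = 0.00145). Ly6c1 read 4.74, 4.73 and 4.81 in Top2b-/- cells, against 6.41, 7.09 and 6.10 in WT cells (-1.77 ± 0.26). The adhesion gene Esam (-1.41 ± 0.25), Pecam1 (-1.12 ± 0.22) and Cdh5, VE-cadherin (-1.19 ± 0.30), were lower as well. Kdr, the main VEGF receptor, had a difference of -0.10 ± 0.19 and did not pass, and neither did Vwf, Tek, Tie1, Cav1, Robo4 and Eng. The summed level of the 16 markers was 102, 110 and 115 in Top2b-/- cells, against 252, 333 and 191 in WT cells. With PBS 2 of the 16 were lower, where 5.68% of all genes tested were lower. With slide as a block 0 of the 16 passed, where 2.15% of all genes did.

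Genes of calcium handling and conduction were higher in Top2b-/- cells after doxorubicin. Of 40 tested, 20 were higher, 3 lower and 17 not past the threshold, with a median of 0.56 (all genes: 16.9% higher, 14.4% lower). Cacnb2, the beta subunit of the L-type calcium channel, read 1.08, 1.36 and 1.22 in Top2b-/- cells, against -0.95, -1.07 and -0.85 in WT cells (2.18 ± 0.14, adjusted p = 9.59e-06). Kcnq1, the slow delayed rectifier potassium channel, read 4.2, 4.31 and 4.37 in Top2b-/- cells, against 2.70, 2.25 and 3.06 in WT cells (1.62 ± 0.19, adjusted p = 0.000253). Neither gene overlapped between groups. Cacna1g, a T-type calcium channel of pacemaker tissue, was higher by 2.81 ± 0.36 and Kcnh2, the rapid delayed rectifier, by 1.65 ± 0.23. Gja1, the connexin of ventricular gap junctions, read 3.23, 3.44 and 3.67 in Top2b-/- cells, against 0.61, 1.89 and 2.12 in WT cells (1.91 ± 0.32).

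The sodium-calcium exchanger Slc8a1 (1.17 ± 0.17), the kinase Camk2d (0.74 ± 0.10), the dyad protein Jph2 (1.28 ± 0.21), calsequestrin Casq2 (0.82 ± 0.14) and phospholamban Pln (0.86 ± 0.16) were higher in Top2b-/- cells as well. The calcium pump Atp2a2 and the release channel Ryr2 had differences of -0.14 ± 0.11 and 0.07 ± 0.19 and did not pass. The 3 lower members included Scn4b and the calcium sensor S100a1 (-0.35 ± 0.10). Scn4b was lower with PBS too, at -4.66. In the PBS groups 1 of the 40 was higher and 6 were lower, with a median of -0.29, beside 6.77% and 5.68% of all genes. The difference of differences passed upward in 14 of the 40 and downward in 0, with a median of 0.81, beside 6.17% and 5.27% of all genes. For Cacnb2 it was 2.36 (adjusted p = 0.000349) and for Kcnq1 2.00 (adjusted p = 0.00219). With slide as a block 1 member was higher, Cacnb2 (1.96, adjusted p = 0.0086), and 1 was lower, beside 1.26% and 0.896% of all genes.

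Sarcomere and Z-disc genes were higher in 14 of 31 tested, lower in 1 and not past the threshold in 16, with a median of 0.45, where 16.9% of all genes were higher and 14.4% lower. With slide as a block 1 was higher. Csrp3, a Z-disc protein that senses stretch, read 8.36, 8.26 and 8.26 in Top2b-/- cells, against 7.39, 7.06 and 6.98 in WT cells (1.15 ± 0.15, adjusted p = 0.000478). Nebl, a nebulin of the Z-disc, was higher by 1.09 ± 0.13, Fhl2 by 1.13 ± 0.15 and Ttn, the titin spring, by 0.76 ± 0.13. Acta1, the skeletal actin of the fetal programme, read 7.93, 7.52 and 7.38 in Top2b-/- cells, against 5.87, 4.40 and 3.91 in WT cells (2.88 ± 0.56). Myh7, the slow myosin heavy chain, read 9.35, 8.04 and 7.61 in Top2b-/- cells, against 2.87, 5.41 and 6.32 in WT cells (3.47 ± 0.72), and with PBS it was higher by 4.72. Myh6, Tnnt2, Tnni3, Actc1, Mybpc3 and Tpm1, which make up most of the working sarcomere, had differences between -0.33 and 0.05 and did not pass. Myl2, the ventricular light chain, was lower on its brightest probe (-0.47 ± 0.16, adjusted p = 0.046) and stood at 0.94 when the probes of the gene were averaged, so its probes disagree. With PBS 4 of the 31 were higher and 0 lower, beside 6.77% and 5.68% of all genes, and those 4 were also higher with doxorubicin. The difference of differences passed upward in 6 of the 31, beside 6.17% of all genes. Csrp3 (1.30), Fhl2 (1.62), Nebl (0.89) and Ttn (1.01) were among the 6.

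Cardiac transcription factors were higher in 10 of 16 and lower in 0, with a median of 0.61, where 16.9% of all genes were higher. Without Top2b-/- replicate 1 the count was 5, and it was 6 without Top2b-/- replicate 2, Top2b-/- replicate 3 or WT replicate 2, and 0 with slide as a block. Nkx2-5, which specifies the cardiac lineage, read 5.38, 5.39 and 5.64 in Top2b-/- cells, against 3.63, 2.79 and 4.32 in WT cells (1.89 ± 0.29, adjusted p = 0.00116). Srf, the serum response factor of actin and sarcomere genes, read 3.91, 3.76 and 4.15 in Top2b-/- cells, against 1.95, 2.03 and 2.84 in WT cells (1.67 ± 0.22). Gata4 was higher by 0.88 ± 0.13, Gata6 by 0.74 ± 0.15, Tbx20 by 0.63 ± 0.12 and the coactivator Myocd by 1.17 ± 0.38. Mef2a, Mef2c, Mef2d and Tbx5 did not pass, and the 3 WT values of Tbx5 were 0.70, 3.42 and 3.88. With PBS 0 of the 16 were higher and 1 was lower, Irx4 (-0.63), where 6.77% of all genes were higher and 5.68% lower. The difference of differences passed upward in 5 of the 16, beside 6.17% of all genes.

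Of 19 genes of natriuretic peptides and the adrenergic axis, 9 were higher, 3 lower and 7 not past the threshold, with a median of 1.01, where 16.9% of all genes were higher and 14.4% lower; 0 were higher and 2 lower with slide as a block. Nppa, atrial natriuretic peptide, read 10.99, 10.60 and 10.15 in Top2b-/- cells, against 8.32, 7.55 and 7.68 in WT cells (2.73 ± 0.38, adjusted p = 0.000613). The difference of Nppa was 2.44 with PBS and 2.65 at 72 h, past the threshold at both, whereas the difference of Nppb was 2.38 with PBS and 0.81 at 72 h, past the threshold at neither. Of the 4 cyclic AMP phosphodiesterase genes on the list, Pde3a, Pde4a and Pde4d were higher and Pde4b, with a difference of 0.05 (adjusted p = 0.975), did not pass. Pde3a read 0.95, 1.11 and 0.97 in Top2b-/- cells, against -1.10, -1.27 and -0.25 in WT cells (1.88 ± 0.22), and Pde4a read 4.18, 4.30 and 4.54 in Top2b-/- cells, against 0.60, 0.96 and 2.70 in WT cells (2.92 ± 0.42). The adrenergic receptors Adrb1 (1.01 ± 0.24) and Adra1b (1.04 ± 0.24) were higher, and Adra1a was lower (-1.78 ± 0.16). Adra1a was lower with PBS (-1.92) and at 72 h (-1.25) as well, in contrast to Pnmt, whose difference was -0.13 with PBS and -0.08 at 72 h.

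Of 33 iron and heme genes 9 were higher and 9 lower, with a median of 0.21, where 16.9% of all genes were higher and 14.4% lower; 0 of the 33 passed with slide as a block. Anthracyclines bind iron, and iron handling has long been studied in their cardiac toxicity. Tfrc, the transferrin receptor for iron uptake, read 1.39, 2.05 and 3.12 in Top2b-/- cells, against -0.36, -1.64 and -1.99 in WT cells (3.52 ± 0.47, adjusted p = 0.000531). Hmox1, the heme oxygenase that breaks down heme, read 2.16, 2.03 and 0.96 in Top2b-/- cells, against 5.49, 5.68 and 3.82 in WT cells (-3.28 ± 0.47, adjusted p = 0.00075). Alas1, the first enzyme of heme synthesis, read 6.89, 7.08 and 7.35 in Top2b-/- cells, against 5.77, 5.82 and 5.45 in WT cells (1.42 ± 0.15, adjusted p = 0.000163). The groups did not overlap in any of these 3 genes. The exporter ferroportin, Slc40a1, was lower (difference -1.43 ± 0.34), the ferritin subunits Fth1 (-0.46 ± 0.09) and Ftl1 (-1.15 ± 0.39), and the heme transporter Slc48a1 (-1.01 ± 0.13). The genes of later heme synthesis went both ways, with Uros (0.80 ± 0.13) higher and Ppox (-1.02 ± 0.13) and Fech (-0.70 ± 0.11) lower. With PBS 2 of the 33 were higher and 6 lower, beside 6.77% and 5.68% of all genes. There Hmox1 was higher in Top2b-/- cells (2.01), Alas1 was lower (-0.74) and Tfrc had a difference of -1.35 that did not pass, which gives differences of differences of -5.29, 2.16 and 4.86. For Slc48a1 the difference of differences was 0.75, so its difference was further below 0 with PBS than with doxorubicin.

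Antioxidant and NRF2 genes were lower in 8 of 30 and higher in 3, a share called of 36.7% beside 31.3% of all genes, with a median of -0.05, which changes sign when arrays are scaled on the 50th percentile. Without Top2b-/- replicate 1, 2 or 3 the lower members numbered 5, 4 or 3, and with slide as a block 0 of the 30 passed. Txnrd1, thioredoxin reductase, read 3.68, 3.70 and 3.69 in Top2b-/- cells, against 5.60, 5.51 and 4.35 in WT cells (-1.46 ± 0.27). Gclm, the modifier subunit of glutathione synthesis, was lower (difference -0.92 ± 0.20) with doxorubicin and higher by 0.85 with PBS. Srxn1, sulfiredoxin, was lower (difference -1.38 ± 0.46). Gsr, glutathione reductase, and Nqo1, a quinone reductase, were higher by 0.70 ± 0.14 and 0.58 ± 0.15.

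Genes of DNA damage signalling and repair were higher in 10 of 29 and lower in 2, with a median of 0.38, where 16.9% of all genes were higher and 14.4% lower. Without WT replicate 3, 18 of the 29 were higher, and leaving out each array in turn gave 7 to 18. The median level over the list was 0.75 on WT replicate 3, and 0.00 and 0.02 on the other WT arrays. On the Top2b-/- arrays it was 0.81 to 0.97. With slide as a block 1 of the 29 was higher. Rif1, which protects breaks from resection, read 0.87, 1.03 and 0.97 in Top2b-/- cells, against 0.06, 0.04 and 0.21 in WT cells (0.85 ± 0.10, adjusted p = 0.000279). Trp53bp1, its partner at breaks, was higher by 1.92 ± 0.35, and the end-joining genes Prkdc, Xrcc4 and Xrcc6 were higher by 1.01 ± 0.19, 0.66 ± 0.17 and 0.45 ± 0.13. H2afx, the histone that is phosphorylated at breaks, read 1.48, 1.57 and 1.82 in Top2b-/- cells, against 3.68, 3.91 and 2.18 in WT cells (-1.63 ± 0.36), and Apex1, a base excision nuclease, was lower (difference -0.86 ± 0.26). With PBS 0 of the 29 differed in either direction, beside 12.5% of all genes. The difference of differences passed upward in 3 of the 29, beside 6.17% of all genes. Heat shock genes were higher in 9 of 22 and lower in 0, with a median of 0.41, where 16.9% of all genes were higher, and 1 was higher with slide as a block. Among them, Hspa4 was higher by 1.25 ± 0.12, the small heat shock proteins of muscle Hspb3, Hspb7 and Hspb2 by 0.87 ± 0.10, 1.20 ± 0.17 and 0.68 ± 0.12, and Dnajb5 by 1.55 ± 0.19. The inducible Hspa1a (0.71 ± 0.50) and Hsp90aa1 (0.32 ± 0.23) did not pass.

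Glucocorticoid and fasting genes were lower in 11 of 25 and higher in 1, with a median of -0.80, where 14.4% of all genes were lower. Without Top2b-/- replicate 3, 7 were lower, and with slide as a block 0 of the 25 passed. Irs2, an insulin receptor substrate, read 3.07, 2.07 and 1.46 in Top2b-/- cells, against 4.91, 4.17 and 4.85 in WT cells (-2.44 ± 0.43). The kinase Sgk1 (-1.90 ± 0.39), the glucocorticoid receptor chaperone Fkbp5 (-1.79 ± 0.44), Pdk4, which shuts pyruvate dehydrogenase (-1.44 ± 0.43) and the transcription factor Foxo1 (-1.01 ± 0.16) were lower. Trim63, the muscle ubiquitin ligase MuRF1, was the higher member (0.77 ± 0.17). Circadian clock genes were lower in 8 of 16 and higher in 2, with a median of -0.76, where 14.4% of all genes were lower and 16.9% higher; 5 were lower without Top2b-/- replicate 3, 4 were higher without WT replicate 1, and 0 of the 16 passed with slide as a block. The output factors Tef and Hlf were lower (differences -1.61 ± 0.17 and -1.40 ± 0.18), the repressors Cry2, Per1 and Per2 (-1.26 ± 0.14, -1.20 ± 0.34 and -1.01 ± 0.26) and Rora (-0.83 ± 0.15), whereas Nr1d1 (1.51 ± 0.30) and Clock (0.73 ± 0.15) were higher. Arntl, the partner of Clock, read 0.95, 1.69 and 1.51 in Top2b-/- cells, against 1.71, -0.53 and -0.11 in WT cells, and did not pass. The hour of day at which hearts were taken is not given in the labels.

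Matrix genes were higher in 13 of 28 (6 with slide as a block) and lower in 4, beside 16.9% and 14.4% of all genes, with a median of 0.66. Of the 28, 9 were higher with PBS too (median 0.90), where 6.77% of all genes were higher. Col3a1, a fibrillar collagen, read 2.29, 1.82 and 1.71 in Top2b-/- cells, against -1.57, -0.99 and -1.73 in WT cells (3.37 ± 0.32, adjusted p = 7.06e-05). Thbs4, a thrombospondin of the overloaded heart, was higher by 2.76 ± 0.29 with doxorubicin and by 3.31 with PBS, and Sparc, a collagen-binding protein, by 1.82 ± 0.23 and 0.92. The inhibitors Timp3 (-1.65 ± 0.19) and Timp4 (-1.68 ± 0.31) were lower, and so was the protease Adamts1 (-2.40 ± 0.45); another protease of this family, Adamts4, was at least 14-fold lower. Of 14 fibroblast markers 7 were higher and 1 lower, with a median of 0.94. The 7 higher ones were collagens and matrix proteins, whereas Dcn, Pdgfra, Gsn, Ddr2, Dpt and Ogn did not pass. With PBS 6 of the 14 were higher and 0 lower, with a median of 1.03. Those 6 were also higher with doxorubicin. The difference of differences passed upward in 1 of the 14, beside 6.17% of all genes. The summed fibroblast level was 117, 97.3 and 92.2 in Top2b-/- cells, against 58.9, 104 and 87.0 in WT cells, and these ranges overlap. The median level over the 14 markers was 1.70, 1.09 and 0.95 in Top2b-/- cells, against -1.32, -0.23 and -0.92 in WT cells, without overlap. The part of fibroblasts in the matrix difference was not tested.

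Apoptosis genes other than p53 targets were higher in 3 of 27 and lower in 5, with a median of -0.04 whose sign depends on the scaling. The share called, 29.6%, was near the 31.3% of all genes, so the list as a whole shows no result; the lower members numbered 2 without Top2b-/- replicate 2 and 3 without Top2b-/- replicate 3. With slide as a block 0 of the 27 passed. Bcl2, which restrains mitochondrial apoptosis, read 0.94, -0.16 and -0.46 in Top2b-/- cells, against -2.21, -2.06 and -2.10 in WT cells (2.23 ± 0.29), and was higher by 2.13 with PBS as well. Its relative Bcl2l1 was lower (difference -1.21), Casp8, the initiator caspase of death receptors (-1.02) and the nuclease Dffb (-1.31). Bok, a BAX-like protein, was higher by 2.15 and well above background on 1 of 3 WT arrays. Cell cycle genes were higher in 3 of 25 and lower in 3, with a median of 0.23; 24% were called beside 31.3% of all genes. The higher members numbered 8 without WT replicate 3 and 5 without WT replicate 1. Spc25, a kinetochore subunit, read -0.43, -1.10 and -1.0 in Top2b-/- cells, against 3.06, 1.95 and 2.60 in WT cells (-3.38 ± 0.28, adjusted p = 3.61e-05), and its difference of differences was -4.40. The D-type cyclins went opposite ways, with Ccnd1 lower (difference -1.67) and Ccnd3 higher by 1.01.

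A comparison with PBS shows which genes passed the threshold between genotypes under both treatments. Of the 5869 genes that differed with doxorubicin, 1045 (17.8%) also differed the same way with PBS, and 138 differed the opposite way. The difference of differences passed for 1735 (29.6%) of the 5869. Another 3151 passed neither with PBS nor in the difference of differences, so a dependence on doxorubicin was not shown for them. The 1045 genes are 44.8% of the 2335 that differed with PBS. Past the threshold the same way in all 3 genotype comparisons, with doxorubicin at 16 h, PBS at 16 h and doxorubicin at 72 h, were 275 genes, 154 higher and 121 lower. The 5 with the largest mean difference upward were Itgb1bp3, Krt18, Spink4, Bend6 and Wdfy1. The 5 largest downward were Rab6b, Scn4b, Ogdhl, Fgl1 and Il15. Il15, a cytokine of natural killer cells, read -3.48, -4.37 and -3.91 in Top2b-/- doxorubicin cells, where 1 of 3 arrays was above background, against -0.04, -0.70 and 0.26 in WT doxorubicin cells. Fgl1 was at least 6.5-fold lower in Top2b-/- doxorubicin cells. Ogdhl, a paralogue of a TCA cycle subunit, was above background on 2 of 3 WT and on 0 of 3 Top2b-/- doxorubicin arrays.

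At 72 h after doxorubicin, 1609 of 19670 genes (8.18%) differed between Top2b-/- and WT cells, 892 (4.53%) higher and 717 (3.65%) lower. Leaving out replicate 3 or 4 of Top2b-/- cells gave 565 or 892 genes at 72 h, and leaving out replicate 3 or 4 of WT cells gave 496 or 871. With the replicate number as a block, which treats same-numbered samples as pairs, 3903 genes (19.8%) passed, 2234 (11.4%) higher and 1669 (8.49%) lower. Calls at 72 h are from the fit without the block unless the block is named. The 16 h and 72 h arrays are different samples. Among 18372 genes tested at both times, 755 differed the same way at both and 27 the opposite way; the 755 genes are 13.3% of the 5698 called at 16 h and 50.8% of the 1485 called at 72 h. Of the 29 p53 targets tested at 72 h, 1 was lower, Fas (-1.58, adjusted p = 0.034), and 0 were higher, with a median of -0.20, and with the block 9 were lower, Phlda3 (-0.91), Polk (-0.96) and Trp53inp1 (-0.81) among them. The difference of Bax was -0.19 and that of Cdkn1a was -1.22, past the threshold in neither fit. Interferon-stimulated genes were lower in 14 of 34 at 72 h with a median of -1.42, against a median of 0.09 over all genes, and with the block 27 were lower and 1 was higher. Without the block 13 were lower at both times, Rsad2 (-3.14), Irf7 (-1.86) and Isg15 (-1.72) among them. Of the 40 calcium genes 4 were higher and 1 lower at 72 h, or 8 and 3 with the block, with Cacna1g at 2.82 and Gja1 at 0.80.

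Of 32 iron genes tested at 72 h, 8 were higher and 4 lower, beside 4.53% and 3.65% of all genes. With the block 9 were higher and 5 lower, beside 11.4% and 8.49%. Without it 9 of the 32 passed the same way at both times, with Tfrc at 3.05 and Alas1 at 1.11. Hmox1 had a difference of -1.66 at 72 h that passed in neither fit. Of the 16 endothelial markers 0 passed at 72 h without the block and 13 were lower with it, with a median of -1.51; Cdh5 stood at -1.59 and Esam at -1.71. Kifc1, at 0.29, and Pnmt, at -0.08, did not pass at 72 h in either fit, while Pttg1, at -4.23, and Scn4b, at -4.99, differed about as much as at 16 h. Of 26 matrix genes tested at both times and of 14 fibroblast markers, 0 passed at 72 h without the block. With the block, 4 of 27 matrix genes and 5 of 14 fibroblast markers were lower and 0 of either list were higher, where 8.49% of all genes were lower. Whether a difference changed between 16 h and 72 h was not tested, since the times were fitted apart.

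**Figure D5:**
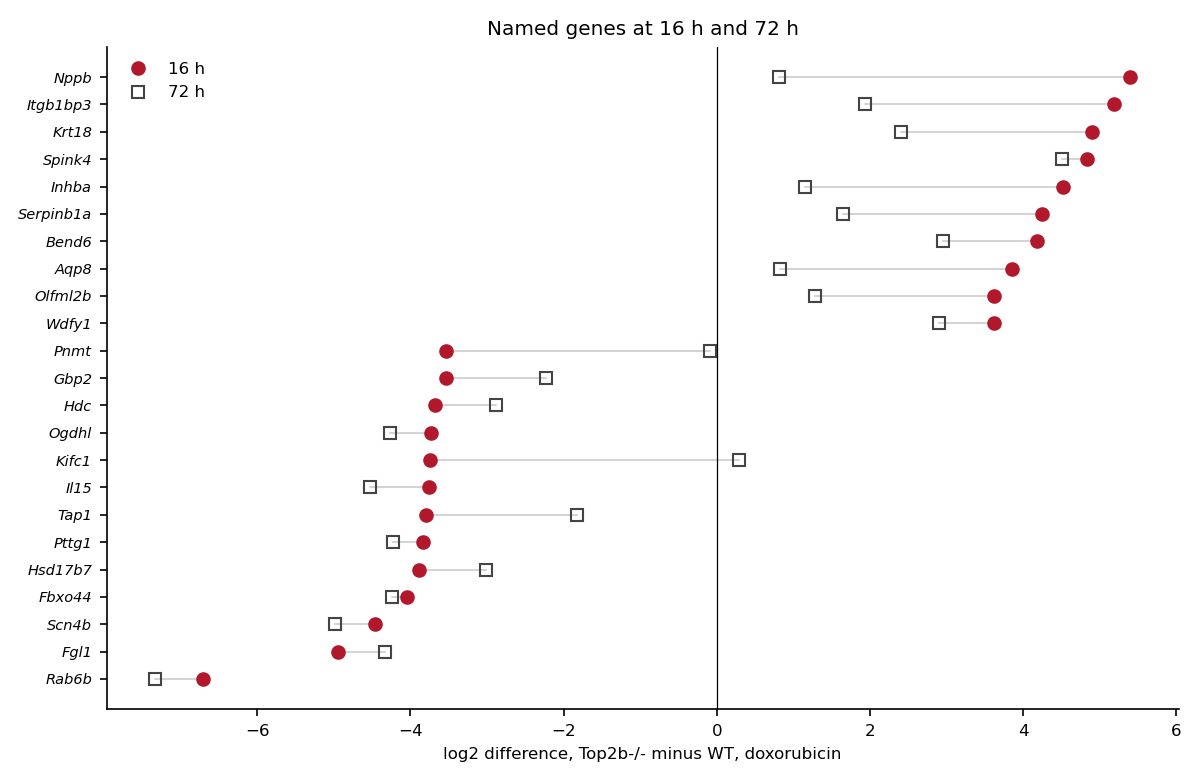
Genotype difference of the named genes with the largest differences, 16 h (filled circles) and 72 h (open squares) after doxorubicin (x axis: log2 difference, Top2b-/- minus WT). Nppb, Inhba, Kifc1 and Pnmt are far from 0 at 16 h and nearer to it at 72 h, while Spink4, Pttg1, Scn4b and Rab6b lie close at both times; Rab6b, Fgl1 and Ogdhl were well above background on no Top2b-/- array of 16 h and Il15 on 1, so their sizes there are not measured folds.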

How the data were processed

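Spot intensity values were deposited as scanner output of one-colour arrays. Per the file headers the software was Agilent Feature Extraction 10.7.3.1, and its background-subtracted processed signal was used. The value table the authors deposited holds, checked against the scanner values, the ratio of the processed signal to the array's median, and it served as an alternative. Control spots and outlier flags were left out. Log2 signals were taken relative to the 75th percentile of each array. At each time, probes had to be flagged as well above background on 3 of 3 arrays in 1 or more of the 4 groups, and genes with several such probes were represented by the brightest. The 4 groups of 16 h (12 arrays, residual spread shared) were fitted with limma 3.58.1 in R 4.3.3, with Benjamini-Hochberg adjustment over all genes tested and a threshold of 0.05. The 72 h arrays were fitted apart. The script was tested on simulated data. Arrays were grouped by title. Members and lists were chosen with earlier results of these data known. Named genes were, by rule, the 10 largest differences in each direction among named genes measured on all 6 arrays without overlap, up to 3 bounds in each direction, the topoisomerases, the 4 members with the lowest adjusted p in each list, and the 5 largest in each direction over all 3 genotype contrasts. A bound compares the mean of the bright group with, per array of the dim group, the faintest signal still flagged as above background or the dim probe's signal, whichever was higher. Probe positions are those of the array file (mm9), and promoter sequences are RefSeq's (GRCm38.p6). Same-numbered arrays of the doxorubicin groups had deviations correlated at 0.0948, -0.0951 and 0.118 at 16 h, so the numbers were not taken as pairs. At 72 h these were 0.262, 0.173 and 0.351, and the numbers were taken as pairs only in the fit with the replicate block. Replicates 2 and 3 of 72 h lay on slide 1 and replicate 4 on slide 2. The part of the slide in these correlations was not tested. The labels do not say that arrays came from separate animals, so p-values measure the spread between these samples, which may be technical. With 3 arrays a group, precision is limited by their number, and an exact permutation test could not go below 0.1. Some genes that the rule names are not reported here.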

Additional observations from a re-analysis of the deposited data

Results flagged for a closer look

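The genes below are those for which the test of the difference itself passed: the genotype difference under doxorubicin minus the genotype difference under PBS at 16 h, on the log2 scale, had an adjusted p under 0.05 in the limma fit. A negative value means that Top2b-/- minus WT was further below 0, or less above it, with doxorubicin than with PBS. No cause was tested for any of them. Ddx3y was well above background on every WT PBS array and on no Top2b-/- PBS array, so with PBS it coincided with genotype. The Top2b-/- doxorubicin arrays lay on slide 2, and of the PBS arrays only Top2b-/- replicate 3 did. This test was passed by 2144 genes, by 3063 with Ddx3y as a covariate and by 373 with slide as a block. Ckap2, Gtse1, Hist1h2bg, Icam1 and Saa3 were well above background on 0 or 1 of 3 Top2b-/- doxorubicin arrays, and all but Icam1 also on 0 or 1 of 3 arrays of each PBS group; Hsd17b7 was so on no Top2b-/- PBS array, Kifc1 on 2 of 3 WT PBS arrays, and Tap1 on 2 of 3 Top2b-/- and 1 of 3 WT PBS arrays. The values of these genes rest on signals near background and are not measured sizes.

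Among p53 targets and genes of division the values were -1.45 for Aen, -1.72 for Bax, -4.64 for Ckap2, -6.44 for Gtse1, -4.17 for Kifc1, -4.40 for Spc25, -4.93 for Hist1h2bg and -1.50 for Bcl2l1. Among interferon, cytokine and acute phase genes they were -2.99 for Irf7, -3.02 for Oasl1, -3.51 for Tap1, -2.26 for Icam1, -3.61 for Il6ra and -5.13 for Saa3. Markers of other cells had -1.55 for Ly6c1, -1.82 for Ly6g, -1.75 for Mrc1, 2.35 for Acta2, 2.21 for Col3a1 and -2.0 for Timp3.

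Among genes of calcium handling, sarcomere and cardiac transcription the values were 2.36 for Cacnb2, 0.70 for Camk2d, 2.00 for Kcnq1, 1.30 for Pln, 1.30 for Csrp3, 1.62 for Fhl2, 0.89 for Nebl, 1.01 for Ttn, 1.06 for Gata4, 1.72 for Nkx2-5 and 1.41 for Srf. The adrenergic axis gave 1.70 for Pde3a and -3.40 for Pnmt. Iron and antioxidant genes gave 2.16 for Alas1, 4.86 for Tfrc, 0.75 for Slc48a1, -1.77 for Gclm, -1.44 for Txnrd1 and 0.66 for Nqo2. Hsd17b7, which was lower in Top2b-/- cells under both treatments, gave 1.25.

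Genes of mitochondria and fuel use gave 1.21 for Acacb, 1.25 for Cox6a1, 0.85 for Dnm1l, 1.62 for Esrrg, 0.94 for Hk2, 1.35 for Mfn1 and 1.30 for Nrf1. Heat shock and repair genes gave 0.99 for Dnajb5, 0.82 for Hspa4, 0.65 for Hspb3, 1.14 for Rad23b and 0.59 for Rif1. Clock and fasting genes gave -1.31 for Cry2, -0.85 for Rora, -1.44 for Tef and -0.97 for Pik3r1. Growth and turnover genes gave -1.22 for Gnl3, -1.01 for Heatr1, 1.21 for Rrn3, -3.57 for Myc, -2.08 for Klf6, 1.36 for Tgfb1, -1.67 for Gabarapl1 and 0.95 for Trim55.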

How the results depend on the processing

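The cause of these shifts was not tested, except that some alternatives use fewer arrays by construction. Against 5869 genes with doxorubicin, 2335 with PBS, 1609 at 72 h, 755 at both times and 2144 for the difference of differences, slide as a block gave 404, 1220, 3302, 187 and 373. A fit of the 2 groups alone gave 2434 with doxorubicin, 5143 with PBS, 519 at 72 h and 207 at both times. Grouping by the genotype field in place of the title gave 0 for the counts of doxorubicin, PBS, both times and difference of differences, and 0 for the gene lists below, with Top2b at -0.0559. Without a filter on dim probes 1275 genes passed with PBS, 853 at 72 h, 397 at both times and 972 for the difference of differences. Leaving out the 4 arrays with contradicting labels, chosen after seeing the data, gave 3904, 1455 and 1155 for doxorubicin, PBS and the difference of differences, and PBS arrays within slide 1, also chosen then, gave 769. The replicate block changed 1609 to 3903 at 72 h and 755 to 1567; as a pairing at 16 h, which the check did not bear out, it gave 5590, 1912 and 1998 for doxorubicin, PBS and the difference of differences. Leaving out each array in turn gave 4119 (without Top2b-/- replicate 2) to 7961 (without WT replicate 3) with doxorubicin, 957 (without Top2b-/- replicate 1) to 1353 (without WT replicate 3) with PBS, 496 (without WT replicate 3) to 1455 at 72 h, 307 to 846 at both times and 1010 (without Top2b-/- PBS replicate 2) to 4746 (without WT doxorubicin replicate 3) for the difference of differences; each of the PBS counts lay more than 1.5 times below the main one. For lists, slide as a block left 8 of 24 lower p53 targets, 1 of 29 lower interferon-stimulated genes, 1 of 20 higher calcium genes, 1 of 14 higher sarcomere genes, 3 of 7 higher fibroblast markers and 0 of 9 lower endothelial markers, and Top2b stood at -1.41 (adjusted p = 0.0783). The 2 groups alone left 16 interferon-stimulated, 12 calcium and 9 sarcomere genes. Leaving out each array gave 22 to 26 p53 targets, 21 to 35 interferon-stimulated genes, 15 to 20 calcium genes, 10 to 16 sarcomere genes, 8 to 12 endothelial and 7 to 8 fibroblast markers, and -1.45 to -1.05 for Top2b. Signs reversed under the genotype field for Aqp8 (-0.70), Cenpe (-0.0452), Cox7a1 (0.0194), Cpt1a (-0.0475), Ech1 (0.0796), Gsr (-0.0481), Hadh (0.0672), Hdc (0.22), Lifr (-0.23) and Ogdhl (0.39), and with the mean of a gene's probes for Lifr (-0.0329) and Myl2 (0.94). Of the 159 named genes past the threshold, 154 stayed past it the same way on the 50th percentile scaling, 156 after quantile normalization, 156 after normexp, 38 with slide as a block and 148 to 158 when each array was left out. Genes too dim to pass the background filter in every group, Top2a among them, could not be tested.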

Other observations

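Growth, fuel and signalling genes not described above also differed between Top2b-/- and WT cells 16 h after doxorubicin. Of 39 Myc and ribosome biogenesis genes 11 were lower and 3 higher, with a median of -0.10 whose sign depends on the scaling, where 14.4% of all genes were lower and 16.9% higher. Without WT replicate 3, 6 were higher, and with slide as a block 0 passed. Myc itself read -1.36, -1.94 and -2.35 in Top2b-/- cells, against 1.33, -0.12 and -0.51 in WT cells (-2.12 ± 0.55). Its partner Max was lower (difference -1.21 ± 0.14) and its antagonist Mxd1 was higher by 3.05 ± 0.66. Rrn3, which recruits RNA polymerase I to ribosomal genes, was higher by 1.18 ± 0.13, while the nucleolar genes Gnl3 and Heatr1 were lower (differences -0.91 ± 0.14 and -0.64 ± 0.11). Of 31 mitochondrial biogenesis and dynamics genes 10 were higher and 2 lower, with a median of 0.25; 6 were higher without WT replicate 2, Top2b-/- replicate 2 or Top2b-/- replicate 3, and 0 passed with slide as a block. The fusion gene Mfn1 read 5.66, 5.72 and 5.70 in Top2b-/- cells, against 4.93, 4.65 and 4.70 in WT cells (0.94 ± 0.11), and the fission gene Dnm1l was higher by 0.76 ± 0.13. The coactivator Ppargc1a had a difference of 0.58 ± 0.46 and did not pass.

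Beside 31.3% of all genes called, of 37 complex I genes 1 was higher and 1 lower, and of 41 genes of complexes II to V 2 were higher and 3 lower. Without WT replicate 3 the lower members numbered 5 in complex I and 8 in complexes II to V, where the other arrays left out gave 1 or 2. Of 32 fatty acid oxidation genes 2 were higher and 5 lower, and of 41 glucose and TCA cycle genes 6 were higher and 4 lower. Leaving out an array gave 2 to 6 lower in the first list, and 4 to 10 higher and 1 to 8 lower in the second. Among glucose genes, Pgam1 was higher by 1.42 ± 0.23 and hexokinase Hk2 by 1.0 ± 0.15, whereas Pfkfb3, which drives glycolytic flux, was lower (difference -2.71 ± 0.66). In the activin and TGF-beta list Inhba and the activin-binding Fstl3 were higher under both treatments (Fstl3 by 2.70 ± 0.30 with doxorubicin and 2.47 with PBS). Il6ra, the receptor subunit for interleukin 6, read -0.79, -1.56 and -1.93 in Top2b-/- cells, against 1.57, 1.83 and 1.84 in WT cells (-3.17 ± 0.29). The acute phase gene Saa3 was lower in Top2b-/- cells, where 1 of 3 arrays was above background, at -0.47, -5.86 and -4.18, against 1.67, 2.07 and 1.30 in WT cells. The adhesion gene Icam1 was at least 4.2-fold lower. Among 22 genes of anthracycline transport and metabolism 6 were higher and 2 lower, or 5 lower without WT replicate 1, and 0 passed with slide as a block. The exporter Abcc3 was higher by 2.58 ± 0.43, and the endothelial nitric oxide synthase Nos3 was lower (difference -1.07 ± 0.21).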
